A study of Sus scrofa with 92 samples.

Results

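The genes described here are 34 genes of striated muscle, looked up by symbol among the pig Ensembl identifiers of the count table. They matched 35 of its 25322 identifiers, because MYBPC2 carried 2 identifiers. The question was which of them were expressed in pig liver at all, and whether those that were changed after hemorrhagic shock or differed with fed status.

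Striated muscle contracts through sarcomeres, in which thick filaments of myosin pull on thin filaments of actin that are anchored in the Z-disc. The intermediate filament protein desmin ties the Z-discs to each other and to the membrane, calcium channels and stores switch contraction on, and muscle forms of the glycolytic enzymes supply ATP. Hepatocytes build no sarcomeres, and desmin in liver is best known as a protein of stellate cells and vascular smooth muscle. The 34 genes take in myosin heavy chains (MYH1, MYH3, MYH7, MYH7B and MYH13), myosin light chains (MYL1 and MYL2) and myosin-binding proteins (MYBPC1 and MYBPC2). Thin-filament genes were the sarcomeric actins ACTA1 and ACTC1, troponin T (TNNT1), nebulin (NEB) and the tropomodulin TMOD4. Genes of the Z-disc and its partners were ACTN2, MYOZ1, PDLIM3, FLNC, CSRP3, XIRP1, XIRP2, FHL1, the stress-responsive ankyrin repeat genes ANKRD1 and ANKRD23, and ABRA. The rest were desmin (DES), the calcium genes CACNA1S and CASQ1, the muscle kinase SRPK3 and the enzymes PYGM, PGAM2, ENO3, HK2 and PFKM.

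RNA was sequenced from liver biopsies of 23 juvenile male Yorkshire-Landrace pigs, which all were fasted overnight, anesthetized, splenectomized and then subjected to a blunt chest injury, hemorrhage and a crush injury of the liver. The 5 carbohydrate prefed (CPF) animals received a syrup of sugars before induction, and the 18 fasted (FS) animals did not. Biopsies were taken from the edge of the liver at Baseline (B), once the instrumented animal was stable, and 2, 8 and 20 hours into full resuscitation with fluid, shed blood and ventilation (FR2, FR8 and FR20). Each animal gave 1 library at each timepoint, every animal was injured, and no uninjured animals are among the samples, so time under anesthesia, repeated biopsy and shock cannot be told apart in a change from B. In whole-tissue RNA, fewer cells of a type and less RNA per cell cannot be told apart either.

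Some libraries stood apart and were handled before any comparison. The FR8 library of CPF animal 1 held 4388 counts and was left out throughout. The B libraries of FS animals 13, 14 and 16, labelled liver, held albumin (ALB) at 0.197, 52.7 and 0.312 CPM (the reads on a gene scaled to a common library total), against 13202 to 168246 CPM in the other 88 libraries. The 9 matched hepatocyte markers summed to 3.81 to 218 CPM in these 3 libraries and to 41126 to 228878 CPM in the 88, so the 3 went against their label and are called albumin-poor below. They were used only for the side-by-side levels in the next paragraphs, and every later value rests on the 88 libraries (15 FS at B, 18 FS at each later timepoint, and 5, 5, 4 and 5 CPF) unless it is said that the 3 were kept. The 88 held 6877117 to 16613261 counts (median 12071957.5), at which 3 counts, taken as the floor of detection, amount to 0.181 to 0.436 CPM. The FR2 and FR8 libraries of FS animal 8 lacked counts for runs of neighbouring genes, 954 and 944 of 9201 well-covered genes, among them FHL1 and SRPK3, and FHL1 levels are therefore given over 86 libraries.

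The albumin-poor libraries were rich in these genes. Together the 34 genes took 13.4%, 12.8% and 13.6% of all counts in FS animals 13, 14 and 16 at B, and 0.00381 to 0.0350% (median 0.00794%) in the 88 libraries. ACTA1, skeletal muscle actin, stood at 18973, 27283 and 25109 CPM in the 3 and at a median of 0.140 CPM, with a highest value of 61.4, in the 88. DES stood at 16279, 14292 and 14223 CPM against a median of 15.2 CPM. The slow and cardiac myosin MYH7 was at 5149, 6108 and 4465 CPM, the fast myosin MYH1 at 3488, 1772 and 1678 CPM, and both had a median of 0 in the 88. Of the 34 genes, 32 were lower in every one of the 88 libraries than in each of the 3, as were 1885 of all 25322 identifiers (7.44%). The sum of 5 skeletal markers outside the 34 (TNNC2, MYLPF, RYR1, ATP2A1 and TCAP) was 11719 to 13433 CPM in the 3 and 0 to 49.6 CPM (median 0.485) in the 88. The heart marker list, of which 5 of 7 genes were matched, summed to 233 to 540 CPM in the 3 and to 0 to 15.8 CPM in the 88. Nearly all of that sum in the 3 was MYH6, at 459, 527 and 225 CPM. TNNI3, TNNT2, MYBPC3 and NPPB each stood at 0 to 7.86 CPM in the 3, and MYBPC3 reached 15.2 CPM in the 88. These 3 libraries were set apart by what they hold, so no test was made between them and the others.

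**Figure D1:**
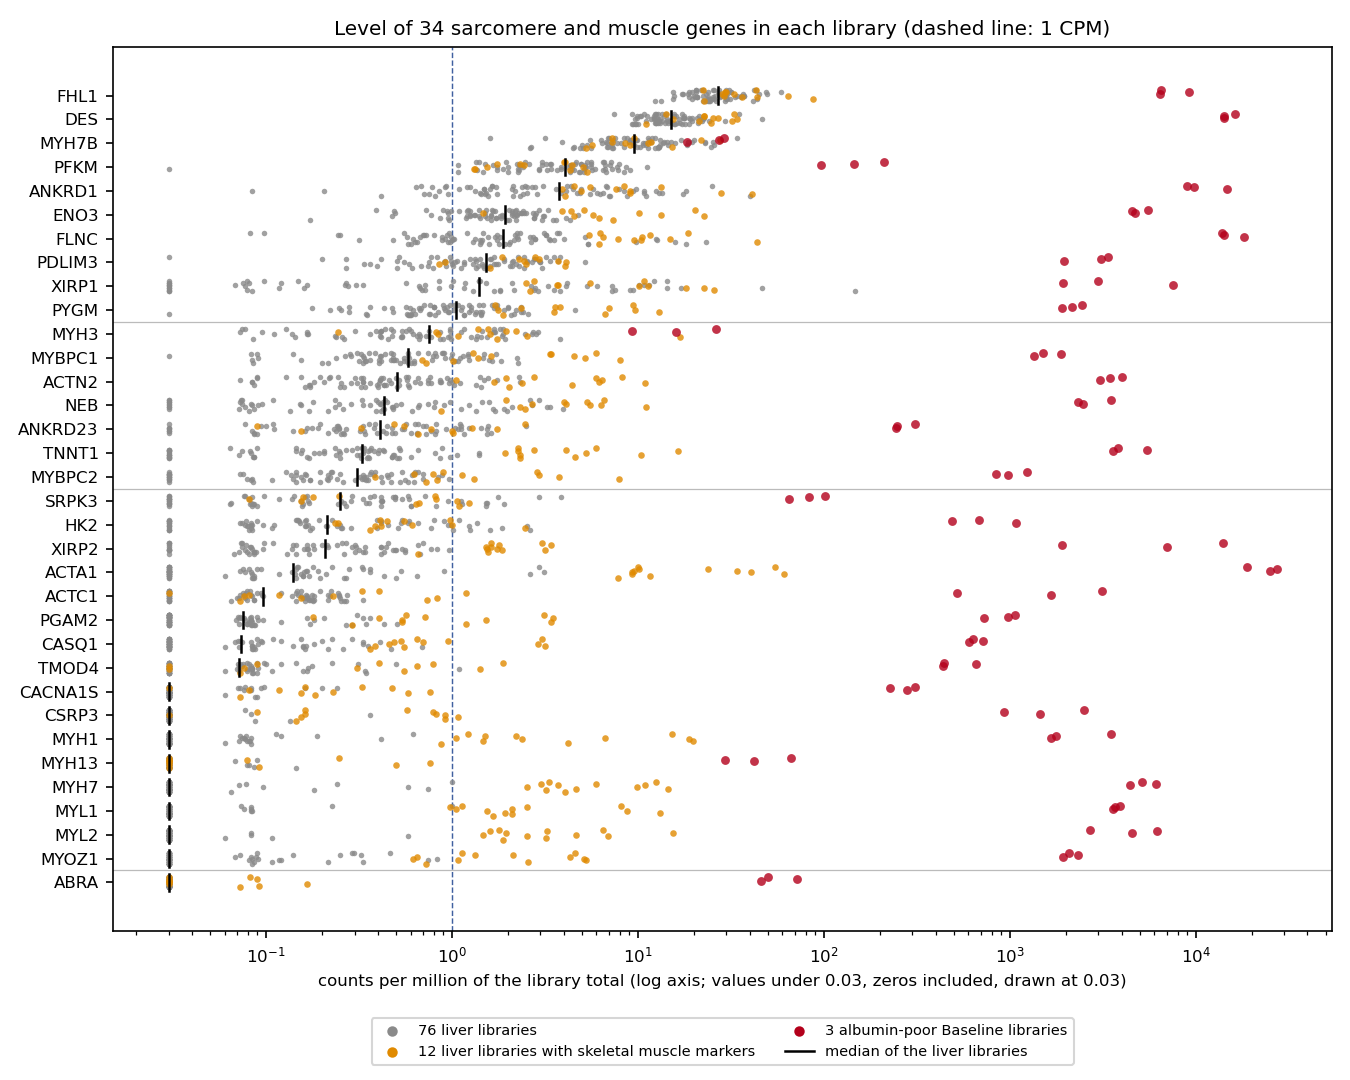
Level of each of the 34 genes in every library, in CPM on a log axis (values of 0 at the left edge), with the 76 liver libraries without muscle markers in grey, the 12 with them in orange and the 3 albumin-poor libraries in red. The dashed line marks 1 CPM. ACTA1 lies at 18973 to 27283 CPM in the red libraries and at a median of 0.140 CPM in the others, whereas the points of MYH7B overlap.

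MYH7B was the gene whose liver level came nearest to that of the albumin-poor libraries. It stood at 29.1, 27.5 and 18.5 CPM in the 3, and its liver median of 9.56 CPM was 34.7% of their median, with 11 of the 88 libraries above the lowest of the 3. MYH7B encodes a myosin heavy chain related to the slow form. For MYH3, the embryonic myosin, the share was 4.73% (26.2, 9.27 and 15.97 CPM in the 3, liver median 0.755 CPM), with 1 liver library above the lowest. PFKM, the muscle form of phosphofructokinase, was at 2.79% (211, 145 and 96.5 CPM in the 3, liver median 4.05 CPM). The other 31 genes had liver medians under 1% of the level in the 3, from 0.417% for FHL1 down to 0.000558% for ACTA1, and 9 of them had a liver median of 0 (MYH1, MYH7, MYH13, MYL1, MYL2, MYOZ1, CSRP3, CACNA1S and ABRA).

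A gene was counted as expressed in liver where its median over the 88 libraries was at least 1 CPM, and 10 of the 34 (29.4%) were, against 10694 of all 25322 identifiers (42.2%). CPM does not correct for transcript length, so levels are compared between libraries and not between genes. FHL1, a LIM-domain protein, had a median of 27.2 CPM (12.4 to 87.2) and DES of 15.2 CPM (7.46 to 46.7), and no library in which they could be read was near the floor. MYH7B had a median of 9.56 CPM (1.61 to 34.2) and was above 3 counts in all 88 libraries. ANKRD1, a titin-binding ankyrin repeat protein induced by stretch, had a median of 3.75 CPM but ranged from 0.0843 to 41.1. FLNC, filamin C, had a median of 1.88 CPM (0.0820 to 43.7). PDLIM3, a PDZ and LIM protein that binds actinin, had a median of 1.52 CPM (0 to 5.22), and XIRP1, an actin-binding protein of muscle cell junctions, of 1.40 CPM (0 to 148). Among the enzymes, PFKM had a median of 4.05 CPM (0 to 11.2), ENO3, the muscle enolase, of 1.94 CPM (0.173 to 22.7) and PYGM, muscle glycogen phosphorylase, of 1.06 CPM (0 to 13.1).

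Low but recurrent counts were seen for 7 genes, whose medians were under 1 CPM but which passed 3 counts in at least 44 of the 88 libraries. These were MYH3 (0.755 CPM), MYBPC1 (0.583 CPM), ACTN2 (0.505 CPM), NEB (0.430 CPM), ANKRD23 (0.413 CPM), TNNT1 (0.328 CPM) and MYBPC2 (0.310 CPM, from 1 of its identifiers, as the other passed 3 counts in no library). In 16 genes fewer libraries passed 3 counts, from 39 for XIRP2, 38 for SRPK3 and 35 for HK2 down to 4 for CACNA1S and 2 for MYH13. ABRA, an actin-binding protein of striated muscle, passed 3 counts in no library and was not detectable at this depth. A gene such as ACTA1 shares long stretches of sequence with other actins, and the same holds among myosin heavy chains. How the counting treated reads shared by such genes, and whether it used strand, is not stated, so low counts of ACTA1, ACTC1 and the myosins are uncertain as to their gene of origin.

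Most of the sporadic counts came from a few animals. In 12 libraries the 5 skeletal markers outside the list summed to more than 3 CPM, at 6.96 to 49.6 CPM, and the next highest library stood at 2.56 CPM. All 12 were from 4 FS animals. FS animal 11 and FS animal 3 were above 3 CPM at all 4 timepoints, FS animal 14 at FR2, FR8 and FR20, and FS animal 5 at B alone, while no CPF library was among them. FS animal 14 was also an animal whose B library was albumin-poor. The 6 later libraries of the other such animals, FS 13 and FS 16, had marker sums of 0 to 0.838 CPM. ALB in the 12 was 31898 to 127914 CPM, within the range of the 76 others. Grouping libraries by these markers was decided after the values were seen, so what follows is a description.

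ACTA1 in FS animal 11 was 9.52, 61.4, 54.4 and 40.7 CPM at B, FR2, FR8 and FR20. In FS animal 3 it was 10.1, 9.32, 7.79 and 34.3 CPM, in FS animal 14 11.6, 10.17 and 9.27 CPM at FR2, FR8 and FR20, and in FS animal 5 24.0 CPM at B. Its highest value in the 76 other libraries was 3.15 CPM, so the libraries did not overlap. The same held for MYH1, MYH7, MYL2 and TNNT1, 5 genes in all, against 10 of all 25322 identifiers (0.0395%). Medians were higher in the 12 than in the 76 for 30 of the 34 genes (26.5% of all identifiers), equal for ABRA and MYH13, and lower for MYH7B (9.31 against 9.67 CPM) and PFKM (3.24 against 4.26 CPM). Of the 16 sporadic genes, 9 to 16 (median 12) passed 3 counts in each of the 12 libraries, and 0 to 8 (median 1) in each of the 76, of which 17 showed none. The 17 genes classed as sporadic or at the floor summed to 20.2 to 137 CPM in the 12 and to 0.0804 to 8.14 CPM in the 76. The highest of the 88 libraries was one of the 12 for 26 of the 34 genes, 14 of 16 sporadic, 6 of 7 low and 5 of 10 expressed genes and ABRA.

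The balance between the counts of MYH1 and MYH7 varied among these libraries. MYH7 made up 78.0% of the summed MYH1 and MYH7 CPM in FS animal 11 at B and 42.3%, 45.0% and 34.5% at FR2, FR8 and FR20. Over the 12 libraries MYH1 stood at 0.873 to 19.9 CPM and MYH7 at 2.54 to 14.5 CPM. In FS animal 3 the share was 73.2%, 51.6%, 82.4% and 62.0% over the same timepoints. MYL2, the slow and cardiac regulatory light chain, and TNNT1, slow troponin T, reached their highest liver values, 15.5 and 16.4 CPM, in FS animal 3 at FR20, and MYH1 and the fast light chain MYL1 (13.2 CPM) in FS animal 11 at FR2. The 2 myosins are counted without length correction, so the share describes change between libraries and not the makeup of the fibers.

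**Figure D2:**
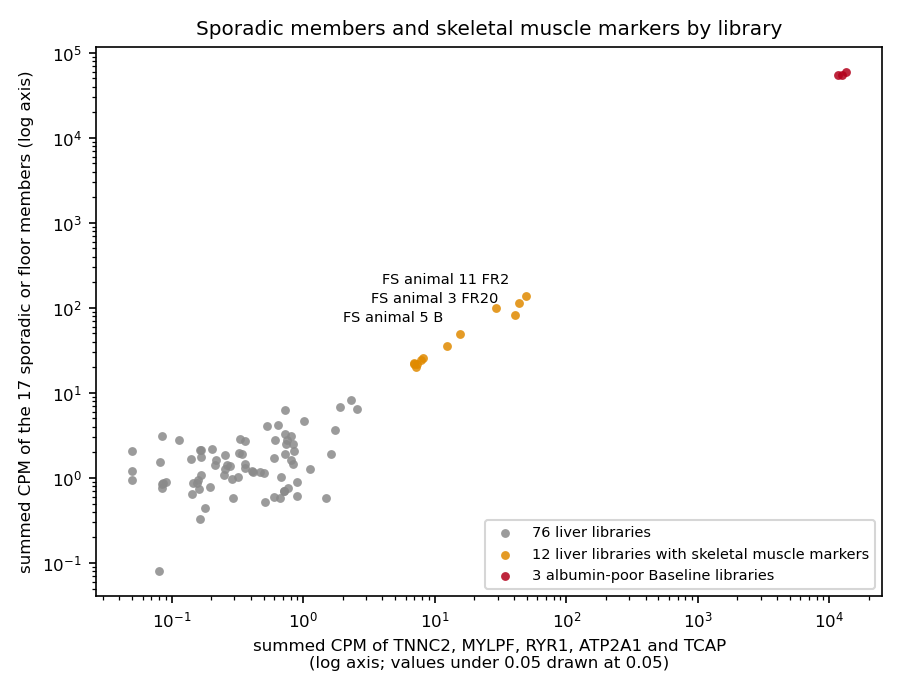
Summed CPM of the 17 sporadic or undetected genes against the summed CPM of 5 skeletal markers that are not among the 34, on log axes. Points are the 88 liver libraries and the 3 albumin-poor B libraries. The 12 libraries with marker sums over 3 CPM, all FS, lie at 20.2 to 137 CPM, above every other one of the 88. The 3 albumin-poor libraries lie higher still, at 54041 to 59453 CPM.

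Without the 12 libraries, 9 genes remained at a median of 1 CPM or more, PYGM dropping to low, TNNT1 and MYBPC2 to sporadic and CACNA1S and MYH13 to the floor. At a threshold of 0.5 CPM 13 genes counted as expressed, over B libraries alone 9, and on TMM-scaled library sizes 10.

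Change from B was tested with edgeR's quasi-likelihood test over 13667 genes with a term for each animal, and a call needed an adjusted p under 0.05 and a log2 fold change of 1 or more in either direction. Levels below are CPM of a library's own total. Log2 fold changes and counts of animals higher or lower use TMM-scaled library sizes, so levels and changes can differ in size or direction. Of the 35 identifiers 30 had enough counts to be tested, and ABRA, CACNA1S, CSRP3, MYH13 and the second MYBPC2 identifier did not. In FS animals the test called 8 at FR2 (XIRP1 and HK2 higher, PDLIM3, MYH7B, ACTN2, TNNT1, MYBPC1 and XIRP2 lower), where 11% of all genes tested were called. At FR8 it called 4, all lower (MYH7B, ACTN2, XIRP2 and MYBPC2), against 11.8% of all genes. At FR20 it called 4, with ANKRD23 and SRPK3 higher and MYH7B and XIRP2 lower, against 9.94%. So 26.7%, 13.3% and 13.3% of the genes tested were called, the last pair near the background. In CPF animals 2 were called at FR2 (XIRP1 higher and PDLIM3 lower), against 2.41% of all genes. MYH7B, lower, was the 1 called at FR8, against 8.83%. None was called at FR20 by edgeR or DESeq2, against 0.702%, though 6 had an unadjusted p under 0.05. The median log2 fold change of the 30 in FS animals was −0.38, −0.87 and −0.71 at FR2, FR8 and FR20, against −0.04, −0.00 and 0.04 over all genes. In a fit without animal terms it was 0.29, −0.16 and 0.28, so the sign at FR2 and FR20 turned with the animal terms. Without FS animal 5, whose B library carried muscle markers, it was 0.31, −0.24 and 0.07, so the sign at FR2 and FR20 also turned without that animal. Without the 12 libraries with muscle markers, that B library among them, it was −0.34, −0.43 and −0.21 over the 21 genes still tested. The remaining genes of the 30 passed the count filter only through the 12 libraries, and the medians over the 30 include them.

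MYH7B fell at every timepoint in FS animals. Its level at B was 9.51 to 34.2 CPM (median 12.3, n = 15), at FR2 5.62 to 18.4 (median 8.88, n = 18), at FR8 1.61 to 25.4 (median 7.06) and at FR20 5.34 to 15.9 (median 9.10). The ranges overlapped, but within animals the level was lower than at B in 14 of 15 animals at FR2, 14 at FR8 and 15 at FR20. The log2 fold change was −1.09 ± 0.22 (SE, adjusted p = 5.82e-05) at FR2, −1.55 ± 0.23 (adjusted p = 8.43e-07) at FR8 and −1.31 ± 0.22 (adjusted p = 4.87e-06) at FR20. At FR2 the change lay close to the size threshold. It fell short of it without FS animal 1 (−0.98), without the 12 libraries with muscle markers (−0.98) and without animal terms (−0.98).

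In CPF animals 1 to 5, MYH7B stood at 20.1, 18.6, 13.7, 25.7 and 13 CPM at B and at 4.91, 11.4, 17.1, 6.79 and 8.10 CPM at FR2. At FR8 animals 2 to 5 stood at 5.03, 4.55, 2.63 and 3.16 CPM, and at FR20 the 5 animals stood at 9.89, 8.92, 9.48, 13.2 and 9.85 CPM. All 4 values at FR8 lay below all 5 at B. The change at FR8 was −2.57 ± 0.46 on the log2 scale (adjusted p = 0.000954), and it was called whichever CPF animal was left out (−2.86 to −2.26). The values for FR2 and FR20 were −0.96 ± 0.40 (adjusted p = 0.161) and −1.16 ± 0.39 (adjusted p = 0.115), and the difference between CPF and FS in the FR8 change, −1.02 ± 0.50, did not pass the test (adjusted p = 0.999).

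The other thick-filament genes were near the floor. MYBPC1, slow myosin-binding protein C, fell at FR2 in FS animals (−1.04 ± 0.39, adjusted p = 0.0258), from a median of 0.882 CPM at B to 0.567 CPM at FR2, with 9 of 15 animals lower. MYBPC2, its fast counterpart, fell at FR8 (−1.04 ± 0.43, adjusted p = 0.0471), from a median of 0.363 to 0.205 CPM, with 13 of 15 animals lower. Neither call held throughout, since MYBPC1 lost it in 5 and MYBPC2 in 12 of the 23 fits that left out 1 animal, and both lost it without the 12 libraries. Both also lost it without animal terms (−0.36 and −0.47). MYH3 had a median of 1.37 CPM at B and of 0.742, 0.731 and 0.922 CPM later in FS animals, and its changes (−0.79, −0.72 and −0.77) did not pass the test (adjusted p = 0.0774, 0.0928 and 0.0821). MYH1, MYH7, MYL1 and MYL2 passed 3 counts in 13 to 15 of the 88 libraries, and none was called over the 88 libraries, though MYH1 was called lower at FR8 in FS animals when FS animal 4 or 11 was left out.

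Among thin-filament genes, TNNT1 fell at FR2 in FS animals by 1.44 ± 0.53 on the log2 scale (adjusted p = 0.0248), from a median of 0.407 to 0.0872 CPM. The call was lost without FS animal 5, 6 or 10, and without animal terms the change was −0.04. NEB, nebulin, had FS medians of 0.814, 1.95, 0.198 and 0.433 CPM at B, FR2, FR8 and FR20, and its changes of 0.82 ± 0.55, −1.19 ± 0.60 and −1.08 ± 0.58 did not pass the test (adjusted p = 0.23, 0.111 and 0.143). DESeq2 called NEB lower at FR8 and FR20. ACTA1, ACTC1 and TMOD4, a capping protein of the thin filament, were not called by edgeR over the 88 libraries with animal terms. ACTC1 and TMOD4 were called lower at FR8 in FS animals by DESeq2, and by edgeR without the FR2 and FR8 libraries of FS animal 8.

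**Figure D3:**
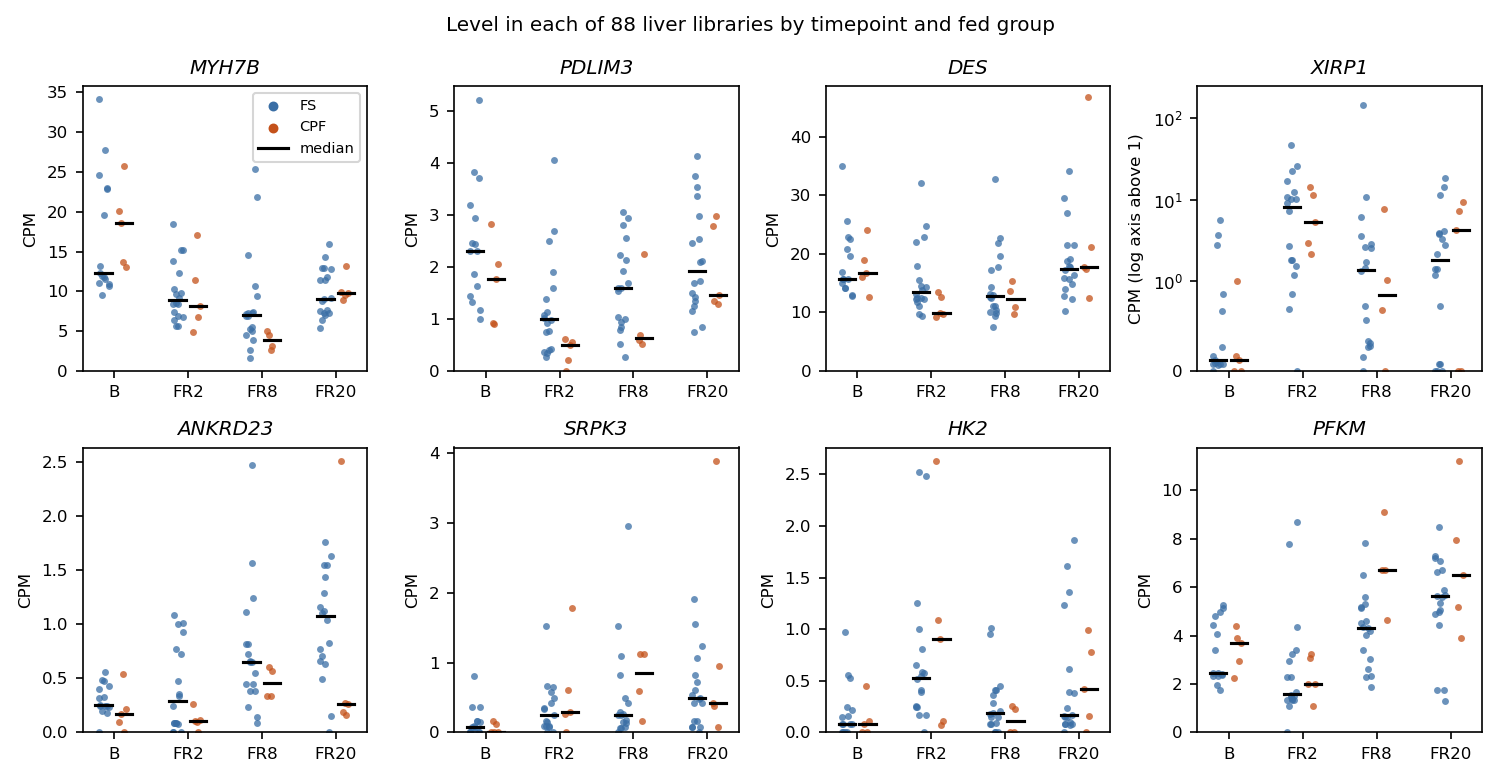
CPM of MYH7B, PDLIM3, DES, XIRP1, ANKRD23, SRPK3, HK2 and PFKM by timepoint in FS and CPF animals, 1 point per library and a bar at the group median; the XIRP1 axis is logarithmic above 1 CPM. XIRP1 medians in FS animals went from 0.121 CPM at B to 8.18 CPM at FR2, and MYH7B was lowest at FR8 in both groups. The CPM drawn is not TMM-scaled.

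Among Z-disc genes, XIRP1 had the largest rise. In FS animals it stood at 0 to 5.56 CPM at B (median 0.121), with 5 of 15 libraries above 3 counts. At FR2 it was 0 to 46.5 CPM (median 8.18), with 17 of 18 libraries above 3 counts. By FR8 and FR20 the medians were 1.36 CPM (0 to 148) and 1.78 CPM (0 to 18.2). The change at FR2 was 3.57 ± 0.86 on the log2 scale (adjusted p = 0.000659), and the level was higher in 13 of 15 animals. It was called whichever animal was left out. The values of 1.69 ± 0.87 at FR8 and 1.54 ± 0.86 at FR20 did not pass edgeR's test (adjusted p = 0.117 and 0.158), but DESeq2 called XIRP1 higher at both, as did edgeR without FS animal 5. Without the 12 libraries the change was 5.38 at FR2 and it was also called at FR8 (3.52) and FR20 (3.19).

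XIRP1 in CPF animals 1 to 5 was 0, 0.166, 0.995, 0.118 and 0 CPM at B and 2.89, 14.3, 2.11, 11.5 and 5.32 CPM at FR2, so the groups of values did not overlap. Later values were 0.671, 7.56, 0 and 1.02 CPM at FR8 (animals 2 to 5) and 4.18, 0, 7.32, 0 and 9.42 CPM at FR20. The change at FR2 was 5.62 ± 1.66 (adjusted p = 0.0431), higher in 5 of 5 animals. The call was lost when CPF animal 1, 2, 4 or 5 was left out, with a log2 fold change of 4.81 to 6.93 over the 5 fits. It was also lost without animal terms (4.76).

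PDLIM3 fell at FR2 in both fed groups. In FS animals it went from 0.999 to 5.22 CPM at B (median 2.31) to 0.269 to 4.06 CPM (median 1.00), lower in 14 of 15 animals (−1.39 ± 0.27, adjusted p = 4.55e-05). At FR8 and FR20 its medians were 1.60 and 1.92 CPM, and the changes of −0.97 ± 0.27 and −0.67 ± 0.26 had adjusted p-values of 0.00306 and 0.0406 but were under the size threshold. In CPF animals 1 to 5 it was 2.82, 0.914, 0.904, 1.78 and 2.06 CPM at B and 0.614, 0, 0.201, 0.506 and 0.555 CPM at FR2. All values at FR2 were below all at B, and the log2 fold change was −2.15 ± 0.55 (adjusted p = 0.0194). As for XIRP1, the call was lost when CPF animal 1, 2, 4 or 5 was left out (−2.33 to −1.97). At FR20 the CPF animals stood at 2.78, 1.34, 2.98, 1.29 and 1.47 CPM, a change of −0.02 ± 0.54.

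ACTN2, the sarcomeric actinin, fell at FR2 (−1.28 ± 0.35, adjusted p = 0.00275) and FR8 (−1.01 ± 0.35, adjusted p = 0.0171) in FS animals, with medians of 0.972, 0.335 and 0.482 CPM at B, FR2 and FR8. It was lower in 14 and 12 of 15 animals. The FR2 call was lost without FS animal 5, an animal whose B library carried muscle markers, and the FR8 call in 8 of the 23 fits. Both ACTN2 calls were also lost without animal terms (−0.28 and −0.51). XIRP2, a relative of XIRP1, fell at all 3 timepoints in FS animals (−1.15 ± 0.45, −1.25 ± 0.45 and −1.57 ± 0.45, adjusted p = 0.0359, 0.0228 and 0.00517). Levels of XIRP2 were lower than at B in 10, 9 and 11 of 15 animals. Its FR2 call was lost in 6 and its FR8 call in 3 of the 23 fits that left out 1 animal, all 3 calls were lost without animal terms, and without the 12 libraries XIRP2 was called at FR20 alone (−1.48).

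Of the ankyrin repeat genes, ANKRD23 rose late. Its FS medians were 0.254 CPM at B (7 of 15 libraries above 3 counts), 0.290 at FR2, 0.648 at FR8 and 1.07 CPM at FR20 (16 of 18 libraries above 3 counts). The change was 1.26 ± 0.38 at FR20 (adjusted p = 0.00725), with 15 of 15 animals higher, and 0.96 ± 0.39 at FR8 (adjusted p = 0.0407), just under the size threshold, with 13 of 15 higher. The FR20 call held whichever animal was left out. The CPF values at FR20 were 2.51, 0.192, 0.271, 0.162 and 0.259 CPM, of which animal 1 alone exceeded 0.543 CPM, the highest at B. ANKRD1 was not called at any timepoint in FS animals (0.12 ± 0.49, −0.53 ± 0.48 and −0.38 ± 0.48) or CPF animals (0.83 ± 0.85, −0.49 ± 0.91 and −0.57 ± 0.84), and its FS level at FR2 ran from 0.0843 to 41.1 CPM.

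FLNC and FHL1 were not called. FLNC changed by 0.22 ± 0.45, −0.23 ± 0.43 and 0.51 ± 0.44 in FS animals. FHL1, fitted without the FR2 and FR8 libraries of FS animal 8, changed by −0.10, −0.34 ± 0.11 and −0.15, of which FR8 had an adjusted p of 0.0134 at a size well under the threshold. Its FS medians at B, FR2, FR8 and FR20 were 27.8, 24.4, 23.7 and 32.5 CPM. MYOZ1 and CSRP3, partners of actinin, passed 3 counts in 18 and 7 of the 88 libraries.

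DES, desmin, moved little. In FS animals it was 12.9 to 35.04 CPM at B (median 15.7), and the later medians were 13.5, 12.7 and 17.5 CPM. The log2 fold changes of −0.50 ± 0.15, −0.65 ± 0.16 and −0.43 ± 0.15 had adjusted p-values of 0.00639, 0.000703 and 0.0233 and stayed under the size threshold, with 10, 14 and 12 of 15 animals lower. At FR20 the median in CPM was thus above B, while the change on TMM-scaled sizes was below 0. In CPF animals DES was 15.97, 18.9, 16.7, 24.0 and 12.6 CPM at B and 9.29, 13.5, 9.96, 12.6 and 9.65 CPM at FR2, lower in 5 of 5 animals (−0.68 ± 0.28, adjusted p = 0.151). Smooth muscle and stellate cell markers, which share desmin's usual sources in liver, summed to 120 to 936 CPM (median 252) in the 88 libraries. Of 10 such markers tested, edgeR called none in FS animals at any timepoint (4, 3 and 3 had an unadjusted p under 0.05), with median log2 fold changes of −0.15, −0.29 and 0.03, and their part in the level of DES was not tested. TAGLN and SYNPO2 among them had 0 counts in 2 of the 88 libraries, and this fit includes the FS animal 8 libraries that lack counts.

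SRPK3, a serine-arginine protein kinase of muscle, rose at FR20 in FS animals by 1.74 ± 0.52 on the log2 scale (adjusted p = 0.00745). Its median went from 0.0845 CPM at B, with 2 of 15 libraries above 3 counts, to 0.489 CPM at FR20, with 12 of 18, and 11 of 15 animals were higher. The change at FR8 was 1.23 ± 0.52 (adjusted p = 0.0539). Without the libraries of FS animal 8 that lack counts, the values were 1.73 at FR20 and 1.25 at FR8 (adjusted p = 0.0512). In CPF animals 1 to 5 it was 0, 0.166, 0, 0.118 and 0 CPM at B and 0.418, 0.384, 3.88, 0.0808 and 0.951 CPM at FR20, and changes of 2.89 ± 1.06, 2.83 ± 1.06 and 3.15 ± 1.04 did not pass edgeR's test (adjusted p = 0.11, 0.0628 and 0.109). DESeq2 called SRPK3 higher at FR8 in both FS and CPF animals, and edgeR called it at FR20 in CPF animals when CPF animal 4 was left out. CASQ1 and CACNA1S, the calcium store protein and channel of skeletal muscle, passed 3 counts in 18 and 4 of the 88 libraries. CASQ1 was not called, and CACNA1S had too few counts to be tested.

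Of the glycolytic genes, HK2, the hexokinase of muscle and fat, rose at FR2 in FS animals. It stood at a median of 0.0845 CPM at B, with 3 of 15 libraries above 3 counts, and at 0.530 CPM at FR2, with 12 of 18. The log2 fold change was 1.71 ± 0.52 (adjusted p = 0.00639), 13 of 15 animals were higher, and the call held whichever animal was left out. In CPF animals 1 to 5 HK2 was 0, 0.0831, 0.452, 0 and 0.108 CPM at B and 2.63, 1.09, 0.905, 0.0723 and 0.111 CPM at FR2 (2.84 ± 1.00, adjusted p = 0.0931 in edgeR), and DESeq2 called this rise. PFKM had FS medians of 2.47, 1.60, 4.33 and 5.61 CPM at B, FR2, FR8 and FR20. Most animals moved the same way, 14 of 15 lower at FR2 and 11 and 12 of 15 higher at FR8 and FR20, but the changes of −0.58 ± 0.25, 0.19 ± 0.24 and 0.31 ± 0.23 did not pass the test (adjusted p = 0.054, 0.548 and 0.308). The PFKM medians are not TMM-scaled, whereas these changes are.

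PYGM was lower at FR2 in 5 of 5 CPF animals, at 2.35, 1.74, 1.27, 2.37 and 0.758 CPM at B and 0.351, 0.765, 0.805, 0.434 and 0.222 CPM at FR2, but the change of −1.88 ± 0.60 did not pass edgeR's test (adjusted p = 0.0601). DESeq2 called it, as did edgeR without the 12 libraries. In FS animals PYGM changed by −0.26 ± 0.31, −0.28 ± 0.32 and 0.06 ± 0.31. ENO3 changed by 0.17 ± 0.24, 0.19 ± 0.24 and 0.54 ± 0.24 and was not called. PGAM2, muscle phosphoglycerate mutase, passed 3 counts in 19 libraries, and its highest value, 3.51 CPM, was in FS animal 3 at FR20.

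Values of 5 non-muscle forms of these enzymes are given beside them. The liver glycogen phosphorylase PYGL had a median of 162 CPM, PGAM1 of 85.2 CPM, ENO1 of 322 CPM, HK1 of 19.5 CPM and the liver phosphofructokinase PFKL of 34.7 CPM over the 88 libraries. At FR2 in FS animals ENO1, PGAM1 and HK1 changed by 0.81 ± 0.14, 0.87 ± 0.14 and 0.54 ± 0.12 (adjusted p = 3.75e-06, 1.02e-06 and 0.000267), under the size threshold.

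Among 37 other sarcomere and muscle genes that could be matched, 5 had a liver median of at least 1 CPM, namely TPM2 (33.2 CPM) and TPM1 (23.5 CPM), tropomyosins also made in smooth muscle and non-muscle cells, MYOM1 (19.0 CPM), FBXO32 (2.70 CPM) and MYBPC3 (1.51 CPM). MYOM1, the M-line protein myomesin, rose at FR20 in FS animals by 1.65 ± 0.25 on the log2 scale (adjusted p = 7.4e-07). STAC3 fell at FR8 and FR20, TNNI3 at FR2, and MYOM2 and TRIM63 at FR8. Of 24 tested edgeR called 1 at FR2 and 3 at FR8 in FS animals and none in CPF animals, where 0, 1 and 3 had an unadjusted p under 0.05.

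Fed status was tested in 2 ways, as the difference between the changes of CPF and FS animals and as CPF against FS at each timepoint. No gene of the list was called in the difference of changes at FR2, FR8 or FR20 by edgeR or DESeq2, with 1, 2 and 1 at an unadjusted p under 0.05, and 0.0% of all genes were called. At B none of 18 tested was called by edgeR or DESeq2, against 0.0257% of all genes, with 3 at an unadjusted p under 0.05. At FR2, FR8 and FR20 none of 23, 22 and 25 tested was called by edgeR, with 8, 5 and 8 at an unadjusted p under 0.05, and 0.0% of all genes were called. DESeq2 called MYH1 lower in CPF animals at FR2. Most estimates lay below 0, with median log2 fold changes of −0.62, −1.22, −1.12 and −0.98 at B, FR2, FR8 and FR20, against −0.03, −0.04, 0.01 and −0.01 over all genes. All 12 libraries with muscle markers were FS, and without them the medians were −0.03, −0.11, −0.24 and 0.02 over the 12, 14, 15 and 15 genes still tested. The genes that dropped out had passed the count filter only through those FS libraries. Their estimates were thus set toward values below 0 in advance, and the medians over all genes tested include them. Without FS animal 5 alone the median at B was −0.19. With 5 CPF animals these tests leave wide intervals, and none of the values shows that the fed groups were alike.

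Without the 12 libraries, changes from B in FS animals were called for 6, 4 and 6 of 21 genes at FR2, FR8 and FR20, against 11.1%, 12.4% and 9.9% of all genes. At FR2 they were HK2 (2.52) and XIRP1 (5.38) higher and ACTN2 (−1.39), MYH3 (−1.11), PDLIM3 (−1.54) and TNNT1 (−1.61) lower. At FR8 they were SRPK3 (1.62) and XIRP1 (3.52) higher and MYH7B (−1.60) and PDLIM3 (−1.07) lower. The FR20 calls were ANKRD23 (1.32), HK2 (1.67), SRPK3 (1.94) and XIRP1 (3.19) higher and MYH7B (−1.27) and XIRP2 (−1.48) lower.

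The 3 albumin-poor libraries changed the result for FS animals most. With them kept at B, 27, 27 and 24 of 34 identifiers tested were called at FR2, FR8 and FR20, all lower, against 10.5%, 10.6% and 8.25% of all genes, and the median log2 fold changes were −3.55, −3.85 and −3.41. ABRA, CACNA1S, CSRP3 and MYH13 passed the count filter only through the 3. The 3 were set apart by what they hold, so this direction was fixed once they stood at B. It says nothing about change in liver. HK2 at FR2 went from 1.71 to −1.92, ANKRD23 at FR20 from 1.26 to −1.06 and SRPK3 at FR20 from 1.74 to −1.33, so that these 3 changed direction. XIRP1 at FR2 was no longer called (1.28). MYH7B was still called lower at FR8 and FR20. In CPF against FS at B, 33 of 34 estimates were below 0 with a median of −9.42, none passed the test in edgeR though 33 had an unadjusted p under 0.05, and 0.00809% of all genes were called. The 3 libraries are all FS, so this direction was fixed by keeping them too.

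**Figure D4:**
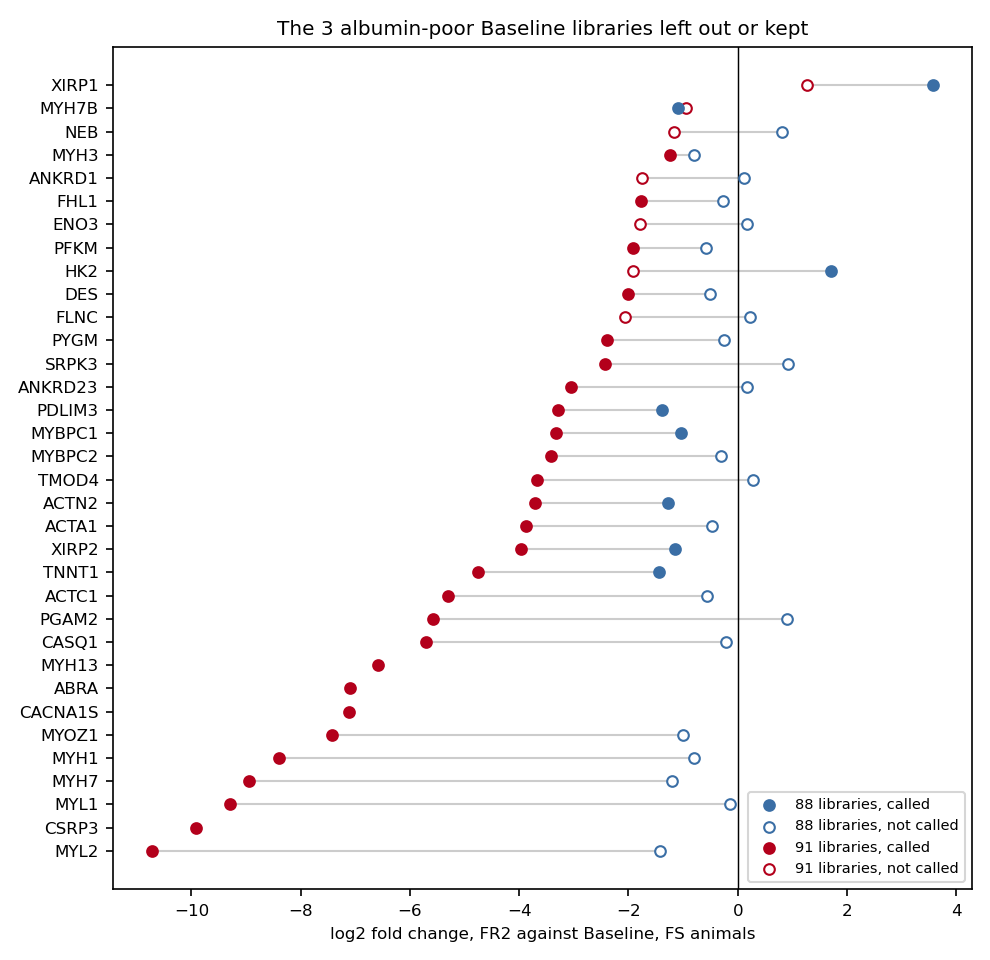
Log2 fold change FR2vB (FR2 against B) in FS animals for each gene tested, fitted on 88 libraries (blue) and with the 3 albumin-poor B libraries kept (red). Filled points were called, grey lines join the estimates of a gene, and HK2 lay at 1.71 without and at −1.92 with the 3 libraries.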

How the data were processed

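Per the submitters' processing notes and the study's methods, reads were demultiplexed with CASAVA 1.8.2, aligned to Sscrofa10.2 with TopHat 1.5.0, sorted with SAMtools and counted on genes with HTSeq, and edgeR 3.2.4 was used for testing. The deposited table holds raw counts per pig Ensembl gene, not normalized by the authors, in 92 columns that all matched a library. The counting mode and strand option of HTSeq are not given in the sources used here.

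The members and gene lists were chosen with earlier results of these data known. Symbols were matched to identifiers through the study's supplementary tables or, failing that, a table of gene names. All 34 genes are accounted for: those with a median of at least 1 CPM of the library's own total, or called, are given in full, and the rest by range and count. Of the 37 other muscle genes, those called or at 1 CPM or more are named. Some results of the other gene lists are not reported here. A library's total counts set the precision, and 3 counts were taken as the floor. MYBPC2 was read from its more abundant identifier.

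Counts were fitted with edgeR 4.0.16 in R 4.3.3 (TMM scaling, genes with a summed CPM of at least 10, glmQLFit and glmQLFTest, 2-sided) with terms for each of the 23 animals and FR2, FR8 and FR20 terms for each fed group, on 88 libraries. The animal terms come from the animal codes in the labels, which pair an animal's libraries. CPF was set against FS on the libraries of a timepoint alone. Adjusted p-values are Benjamini-Hochberg over all genes tested. Calls took a log2 fold change of 1 or more in either direction at an adjusted p below 0.05. Standard errors are the fold change divided by the square root of F. Animals above or below B were counted on TMM-scaled CPM.

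Alternatives were RLE size factors, a summed CPM of at least 3, filterByExpr, DESeq2 1.42.0, the 3 albumin-poor libraries kept, no animal terms and leaving out each animal. Leaving out the FR2 and FR8 libraries of FS animal 8, or the 12 libraries with muscle markers, was chosen after seeing the data. The fits were also run on simulated counts with known changes, a common dispersion and no animal effects. Those counts were not made to resemble genes near the floor, so they are no check of such calls. Tables and plots used Python 3.11.15, pandas 2.3.3, numpy 2.4.6 and matplotlib 3.10.9.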

Additional observations from a re-analysis of the deposited data

Results flagged for a closer look

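In CPF groups of 4 or 5 libraries, the highest or lowest library was compared with its nearest neighbour by Dixon's test of the gap over the range, for 18 genes in 72 groups. For independent, normally distributed values this limit picks out about 1 in 20 groups. The CPM were not transformed, some rest on few counts, and the genes share libraries, so that rate does not apply here. No excess can therefore be read from the 16 groups picked out. CPF animal 3 gave 10 of them. At B it stood highest for HK2 (0.452 CPM, the next at 0.108) and XIRP1 (0.995 CPM, the next at 0.166). At FR8 it stood highest for ANKRD1 (17.5 CPM, the next at 2.15), XIRP1 (7.56 CPM, the next at 1.02) and FLNC (23.2 CPM, the next at 1.78). At FR20 it stood highest for DES (46.7 CPM, the next at 21.2), ANKRD1 (18.2 CPM, the next at 3.65), PYGM (4.61 CPM, the next at 0.485), SRPK3 (3.88 CPM, the next at 0.951) and TNNT1 (0.813 CPM, the next at 0.0864).

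The other 6 were in other CPF animals. CPF animal 4 was high for MYH7B (13.2 CPM, the next at 9.89) and XIRP2 (0.970 CPM, the next at 0.181) at FR20 and low for FHL1 at FR8 (19.0 CPM, the next at 29.0). CPF animal 1 was high for ANKRD23 at FR20 (2.51 CPM, the next at 0.271). CPF animal 5 was high for PDLIM3 at FR8 (2.26 CPM, the next at 0.687) and XIRP2 at FR2 (0.776 CPM, the next at 0.289). The XIRP2, HK2 and TNNT1 values rest on 5 to 12 counts.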

How the results depend on the processing

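Counts of genes called that moved by more than 1.5 times are given by setting. With the 3 albumin-poor libraries kept, FS animals gave 27, 27 and 24 genes at FR2, FR8 and FR20 and CPF animals 0 at FR2, and HK2 at FR2 (−1.92), ANKRD23 at FR20 (−1.06) and SRPK3 at FR20 (−1.33) in FS animals reversed. For FS animals the content of the 3 fixed this direction in advance. Without animal terms, that is with no replicate block to pair an animal's libraries, FS animals gave 3 at FR2 and CPF animals 1 at FR2. DESeq2 gave 9 and 7 in FS animals at FR8 and FR20, 4 and 2 in CPF animals at FR2 and FR8, and 1 for CPF against FS at FR2. Leaving out 1 animal at a time gave 4 to 8, 2 to 10 and 4 to 6 genes in FS animals at FR2, FR8 and FR20. FS animal 5 gave the lowest at FR2 (4) and FR8 (2), and leaving out FS animal 7, 11, 14 or 16 gave 10, 9, 7 and 8 at FR8. In CPF animals the ranges were 0 to 2, 1 to 1 and 0 to 1 at FR2, FR8 and FR20, with 0 at FR2 without CPF animal 1, 2, 4 or 5 and 1 (SRPK3) at FR20 without CPF animal 4. For the difference of changes and for CPF against FS they were 0 to 0. The other counts, with RLE scaling, either filter, FS animal 8's libraries left out or the 12 libraries with muscle markers left out, stayed within 1.5 times. Without the 12, however, 21 genes were tested in place of 30. The share called in FS animals was then 28.6%, 19.0% and 28.6%, against 26.7%, 13.3% and 13.3%. In CPF animals at FR2 it went from 6.67% to 14.3%. At FR8 in FS animals MYH7B alone was called both with and without the 12. Of 535 refits of the 19 called log2 fold changes 464 were still called in the same direction, 68 were no longer called and 3 reversed. CPM per kilobase of coding length was not run, as no lengths of this build were at hand. At a floor of 3 counts, or 0.181 to 0.436 CPM, lower levels were not detectable.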

Other observations

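Marker lists of other cell types moved in FS animals as follows. Of the hepatocyte list 1, 2 and 1 markers were called higher and 0, 5 and 5 lower at FR2, FR8 and FR20, with median log2 fold changes of −0.68, −0.86 and −0.78. Of the erythroid list, matched by 2 of 4 genes, 1, 2 and 2 were called lower. HBB and ALAS2 of that list, and the hepatocyte markers APOA1 and SERPINC1, each had 0 counts in 2 of the 88 libraries. The lowest erythroid sum was 0 CPM in FS animals at FR2 and at FR8. The FS values at FR2 and FR8 include the libraries of FS animal 8 that lack counts, so they are uncertain for these lists. The single fat marker tested, PLIN1, was called lower at FR2 (−1.28) and higher at FR20 (1.71). Of 2 heart markers tested 1 was called lower at FR2. In CPF animals 1 smooth muscle or stellate marker was called higher (LRAT, 1.72) and 1 lower (SMTN, −1.36) at FR8. The part of these cells in the values above was not tested.

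The FR20 library of CPF animal 3, highest for several of the genes, was also the highest CPF library at FR20 for ACTA2 (435 CPM), TAGLN (300.2 CPM), TPM1 (66.8 CPM) and TPM2 (119 CPM), genes of smooth muscle and other contractile cells, and its PFKM level was 11.2 CPM. Whether those cells account for its values was not tested.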
